A study of Macaca mulatta with 8 samples.

Results

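The 10 genes described here are transcription factors that set and keep photoreceptor identity: NRL, NR2E3, CRX, OTX2, RORB, THRB, RXRG, NEUROD1, MEF2D and SAMD7. They were chosen by name, and each symbol was carried by exactly 1 of the 26533 features counted in every library, so all 10 members were measured. The data were single-cell RNA-seq of 8 retinal punches from 2 male rhesus macaques, taken at the end of the third month after vitrectomy and subretinal injection of adeno-associated virus (AAV) vectors. NHP1, aged 5 years, had received AAV2-CAG-hRPE65 in both eyes, in which the ubiquitous CAG promoter drives the human retinal pigment epithelium enzyme, and gave 2 libraries from areas labelled uninjected. NHP2, aged 6 years, had received AAV8-GRK1-hRPGR and AAV8-GRK1-mScarlet in separate blebs of each eye. Both vectors carry the photoreceptor promoter GRK1, one driving a codon-optimized RPGR and the other a red fluorescent protein. NHP2 gave 2 libraries each from the hRPGR bleb, the mScarlet bleb and the uninjected area, 1 from each eye. Every eye had also received subtenon triamcinolone and a topical steroid-antibiotic ointment, and the left eye of each animal received repeated intravitreal adalimumab, an antibody against tumor necrosis factor. All libraries therefore came from operated and steroid-treated eyes, and no library came from an animal without a vector. The libraries of an area are the 2 eyes of 1 animal, so every p-value for NHP2 measures the spread between punches of that animal alone. With 2 animals in all, no other p-value measures the spread between animals either.

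Photoreceptor fate is built by layers of factors. The homeobox proteins OTX2 and CRX, with the basic helix-loop-helix factor NEUROD1, set the general photoreceptor program. NRL, a leucine zipper protein induced downstream of the orphan receptor RORB, and its target NR2E3 direct precursors to the rod fate and hold back cone genes, while the thyroid hormone receptor THRB and its partner RXRG act in cones, where THRB is required for the cones that carry long- and medium-wavelength (L/M) opsin. MEF2D co-activates CRX targets, and SAMD7 is a photoreceptor partner of Polycomb repressor complexes.

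The 8 libraries held 90634306 to 146519011 unique molecular identifiers (UMIs) and 9562 to 15080 cell barcodes with at least 1500 UMIs. Cells were clustered without the 10 members and named from other markers. Cone-like cells held 3460 to 5076 CPM (UMIs per 1000000 of the class sum in a library) of ARR3, cone arrestin, against 2.15 to 79.2 in rod-like cells. ARR3 was not kept out of the clustering, so this difference does not check the names. Clusters that matched rod markers best but did not pass the naming rule made up 10.4% to 59.8% of rod-like plus such cells, and most in the left NHP1 library and the left NHP2 uninjected library (45.9%); they were kept out of the rod-like class and are described on their own. Transgene UMIs went against 2 labels. In the left NHP1 library, labelled uninjected, 45.7% of cells held a huRPE65 UMI against 0.0708% in the right one, and in the right NHP2 library labelled uninjected 17.3% of cells held a coRPGR UMI against 0% (0 UMIs) in the left. Some comparisons that use these libraries are also given without them, and the others rest on all libraries as labelled.

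The loci are spread over 6 macaque chromosomes in the Mmul_10 assembly, the build of the count tables, with RefSeq gene models. NRL (ENSMMUG00000007361) spans chr7:86163322-86202871 on the minus strand. NR2E3 (ENSMMUG00000019276) lies on the same chromosome at chr7:48536927-48543897 on the plus strand, and OTX2 (ENSMMUG00000038006) at chr7:118901435-118912050 on the minus strand. CRX (ENSMMUG00000049999) spans chr19:47850031-47856191 on the plus strand. RXRG (ENSMMUG00000002892) lies at chr1:22876547-22921254 on the minus strand and MEF2D (ENSMMUG00000016696) at chr1:94464562-94503154 on the plus strand. THRB (ENSMMUG00000000067) has the longest gene model, 371.9 kb at chr2:23172736-23544648 with 10 annotated transcript starts, and shares that chromosome with SAMD7 (ENSMMUG00000058204) at chr2:74847275-74874240; both are on the plus strand. RORB (ENSMMUG00000012571) spans chr15:89924843-90114815 on the plus strand, and NEUROD1 (ENSMMUG00000008296) chr12:68767705-68772428 on the minus strand. UMIs were counted per gene under the ENSMMUG identifiers, so the THRB values do not separate transcript starts. Whether the counted gene models have the same spans and starts as the RefSeq ones was not examined.

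CRX and OTX2 bind DNA through homeodomains that recognize the core TAATC, so the 250 bases before each annotated gene start were searched for TAATC or its reverse complement GATTA, and for the longer TAATCC or GGATTA. The longer word was in 0 of the 10 members' windows and in 9.29% of the 20782 gene windows of the assembly. The shorter word, chosen after that result was seen and which every match to the longer one also contains, was in 3 of 10 members and in 20.98% of all windows. The windows of these 3 members, NR2E3, RXRG and NEUROD1, are printed because they are the ones that hold the word. Each is the RefSeq window 5′ to 3′ on the gene's strand, with the matched letters in capitals. The NR2E3 window is chr7:48536677-48536926 on the plus strand, with 1 match starting 28 bases before the gene start. The RXRG window is chr1:22921255-22921504 on the minus strand, with 1 match starting 45 bases before it. The NEUROD1 window is chr12:68772429-68772678 on the minus strand, with matches starting 127 and 54 bases before it. A match is a description of the letters and not a mapped binding site. The window lies before the outermost annotated start, and NRL, OTX2, THRB, RXRG and MEF2D have several starts. It need not be the promoter used in the retina.
NR2E3: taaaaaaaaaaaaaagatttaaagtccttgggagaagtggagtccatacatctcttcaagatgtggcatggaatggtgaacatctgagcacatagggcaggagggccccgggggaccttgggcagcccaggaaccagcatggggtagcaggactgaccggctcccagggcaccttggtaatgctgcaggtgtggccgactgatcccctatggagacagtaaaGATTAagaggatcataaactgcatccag
RXRG: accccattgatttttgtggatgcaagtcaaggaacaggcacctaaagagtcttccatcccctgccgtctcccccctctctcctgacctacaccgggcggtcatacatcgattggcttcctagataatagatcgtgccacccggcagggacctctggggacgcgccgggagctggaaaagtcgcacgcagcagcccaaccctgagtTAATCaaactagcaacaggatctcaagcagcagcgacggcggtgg
NEUROD1: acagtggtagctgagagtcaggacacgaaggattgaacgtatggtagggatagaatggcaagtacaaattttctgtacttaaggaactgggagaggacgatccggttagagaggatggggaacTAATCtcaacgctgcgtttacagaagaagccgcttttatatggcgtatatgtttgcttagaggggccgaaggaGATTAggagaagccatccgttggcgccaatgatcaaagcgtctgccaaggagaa

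The rod determinants NRL and NR2E3 were measured at their highest levels in rod-like cells. NRL stood at a median of 3920 CPM, lowest 3414 and highest 4619 over the 8 libraries, and the rod-like range did not overlap that of any other named class. In cone-like cells its median was 69.4, from 29.0 to 158. NR2E3 had a median of 316 in rod-like cells, from 288 to 382, and of 4.76 in cone-like cells, from 3.10 to 17.4. Again no other class reached the rod-like range. After every cell was thinned to 3000 UMIs, 99.7% to 99.98% of rod-like cells in each library held an NRL UMI and 55.1% to 66.8% an NR2E3 UMI; thinning left out 6933 of 43479 shallower rod-like cells, and before it the ranges were 97.96% to 99.5% and 67.2% to 82.0%. These are level differences between classes that were clustered on the genes of the same cells, and they carry no test.

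The NRL signal outside rods was set beside free RNA. Barcodes with 100 to 1000 UMIs were taken as RNA outside intact cells, although damaged or shallow cells may be among them. They contained NRL at a median of 1272 CPM. If the only source of NRL in a class were this RNA, NRL and GNAT1, the rod transducin gene, would stand in the free RNA's ratio. GNAT1 was chosen for this after its levels had been seen. The level of NRL over that expectation was 1.03 to 1.74 in bipolar-like, 1.11 to 1.61 in Müller-like and 0.942 to 1.57 in myeloid-like cells, and 0.886 to 1.80 in cone-like cells. NRL lay above the expectation in 8 of 8 libraries in bipolar-, Müller-, amacrine- and ganglion-like cells. It did so in 7 of 8 in cone-like, 6 of 8 in myeloid-like and 5 of 8 in horizontal-like cells. The source of this excess was not tested. These ratios were low beside those of RXRG or OTX2 given further on, and no expression is read from the shares of cells with an NRL UMI outside rods: 18.3% to 57.5% of thinned bipolar-like cells held 1. NR2E3 behaved likewise in bipolar-like (1.02 to 2.42), Müller-like (1.06 to 2.08) and myeloid-like cells (0.707 to 1.74). The ratios reached higher in some libraries of other neurons, where NR2E3 had 1.05 to 5.58 in ganglion-like, 1.04 to 4.00 in horizontal-like and 1.03 to 3.51 in amacrine-like cells, and NRL 1.15 to 3.18 in ganglion-like cells. NR2E3 stood at 0.999 to 3.03 times the expectation in cone-like cells, where it was near the limit of counting.

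The homeobox factors had different orders. CRX, which activates photoreceptor genes of both rods and cones, was highest in rod-like cells with a median of 435 (381 to 486), followed among the neurons by cone-like cells with 193 (140 to 250) and bipolar-like cells with 138 (113 to 168); the RPE-like cluster had 165 (148 to 192) in 4 libraries. The rod-like range lay above the cone-like one, whereas the cone-like and bipolar-like ranges overlapped. OTX2, which lies upstream of CRX and stays on in bipolar cells, was highest in bipolar-like cells among the neurons, with a median of 341 (326 to 365), then in rod-like cells with 169 (154 to 243) and in cone-like cells with 91.2 (78.9 to 121), and these 3 ranges did not overlap. In the RPE-like cluster it reached a median of 359 (228 to 373), from 4 libraries with at least 50000 UMIs. That cluster also held NRL at a median of 524 (259 to 1534), the highest median after rod-like cells. Its free-RNA expectation was not computed, and the part of rod RNA in its CRX and OTX2 levels was not tested. Against the free-RNA expectation, OTX2 in bipolar-like cells reached 16.5 to 69.9 times that level and CRX 2.64 to 8.03 times in the 8 libraries. In Müller-like cells both stood near the expectation (0.776 to 1.255 for OTX2 and 0.843 to 1.01 for CRX).

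The nuclear receptors were not confined to photoreceptors. RORB, the receptor upstream of NRL, was highest in horizontal-like cells, with a median of 1152 (1049 to 1406), and then in Müller-like cells with 681 (441 to 841). Amacrine-like cells followed with 373 (296 to 481), ganglion-like cells with 281 (251 to 327) and bipolar-like cells with 272 (229 to 303), all ranges overlapping their neighbor. Rod-like cells stood lower, at 127 (110 to 165), without overlap with bipolar-like cells, and cone-like cells at 100.1 (84.0 to 156). In horizontal-like cells 90.4% to 97.4% of thinned cells held a RORB UMI, against 27.1% to 38.6% of rod-like cells.

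THRB, the receptor that L/M cones require, was highest in cone-like cells, with a median of 455 (372 to 634). Müller-like cells were next with 313 (213 to 387), lower than cone-like cells in all 8 libraries although the ranges overlapped. Amacrine-like cells had 198 (91.4 to 267), rod-like cells 183 (173 to 244), bipolar-like cells 155 (127 to 181) and ganglion-like cells 149 (85.7 to 210), ranges that overlapped in turn. Horizontal-like cells had 18.1 (3.28 to 49.3), the lowest THRB median of the named classes, in the class where RORB had its highest. RXRG, which forms heterodimers with THRB, was found in cone-like cells at a median of 252 (204 to 285) and in ganglion-like cells at 214 (132 to 274). These ranges overlapped, and every other named class lay below both, with medians up to 8.15 in Müller-like cells and 1.82 in rod-like cells. RXRG UMIs were in 43.3% to 60.6% of thinned cone-like cells, 33.3% to 68.8% of ganglion-like cells and 0.2998% to 1.63% of rod-like cells. Over the free-RNA expectation, RXRG stood at 114.1 times or more in cone-like and 100.2 times or more in ganglion-like cells of every library.

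The remaining members separated rods from cones in opposite directions. NEUROD1 was highest in rod-like cells with a median of 350 (311 to 395), then cone-like cells with 142 (134 to 188) and bipolar-like cells with 107 (87.9 to 138). MEF2D was highest in cone-like cells, at 137 (110 to 150), without overlap with rod-like cells at 43.0 (38.2 to 66.8). SAMD7 did not separate them: rod-like cells had 111 (84.3 to 174) and cone-like cells 93.4 (86.6 to 121), higher in rod-like cells in 5 of 8 libraries. Every other class had a SAMD7 median at or under 14.99, and in bipolar-like cells SAMD7 stood at 1.03 to 1.41 times the free-RNA expectation.

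**Figure D1:**
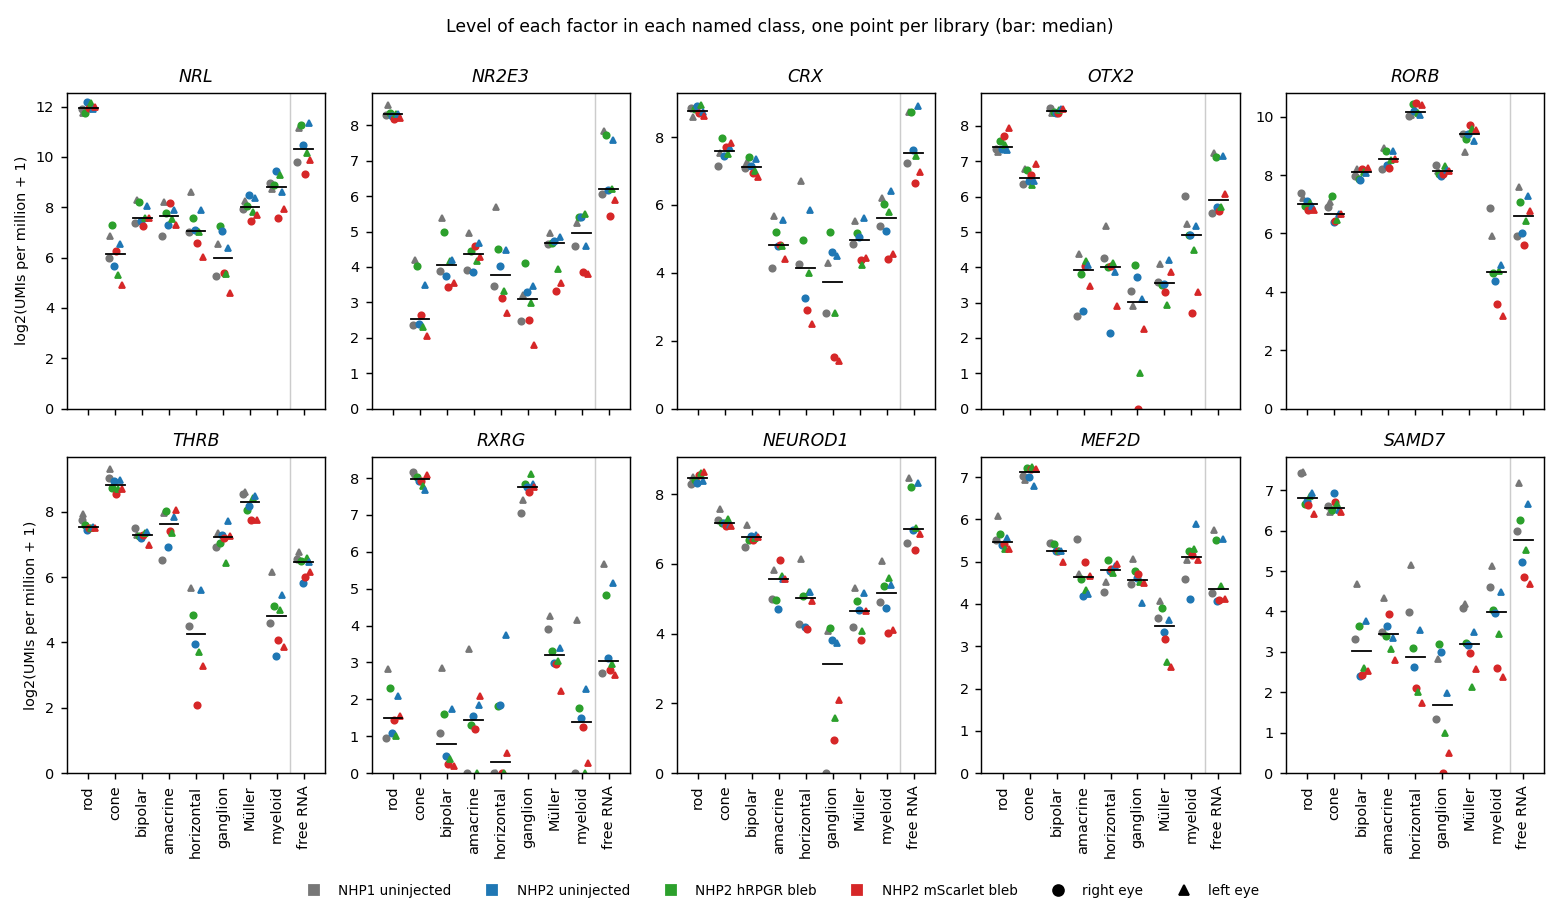
Level of each of the 10 factors in 8 named classes and in free RNA, as log2 of CPM plus 1, with 1 point per library (color: animal and area, shape: eye) and a bar at the median. NRL and NR2E3 stand apart in rod-like cells, RXRG in cone-like and ganglion-like cells, OTX2 is highest among the plotted neurons in bipolar-like cells and RORB in horizontal-like cells.

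The genes whose levels followed these patterns most closely were taken from the Pearson correlation of log2 CPM over 78 sums of class and library, which share libraries and free RNA, so the values only describe likeness. Among the genes most like NRL were GNAT1 (r = 0.98), PDE6G (0.98), REEP6 and SLC24A1. NR2E3 was most like the rod channel gene CNGA1 (0.95), REEP6 (0.95), NT5E, PDE6B and PFKFB2. CRX was most like UNC119 (0.96), TULP1 (0.94), PRCD, DRD4 and SLC6A6, and NEUROD1 like TULP1 (0.92), CDHR1, RDH12, SLC6A6 and CRX (0.90). For OTX2 the leading genes were the dopamine receptor gene DRD4 (0.92), the glutamate transporter gene SLC1A7 (0.92), CACNA2D4, KIAA1614 and CRX (0.86). For RXRG the closest gene was the LIM homeobox gene ISL2 (0.89), and RAMP3 (0.79), NIPAL3 and PYGB were also among the leading genes. THRB was most like MAP2 (0.89), NRG1 (0.89), PPP1R9A, CADM1 and SHROOM3.

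Cone subtypes gave the one comparison in which members passed the test. Cone-like cells were split by opsin, which is not a member: S cone-like cells held at least 3 OPN1SW UMIs and more of them than of OPN1LW, and L/M cone-like cells the reverse. THRB, MEF2D and SAMD7 were lower and RORB and RXRG higher in S cone-like than in L/M cone-like cells. Thus 5 of 10 members were called at an adjusted p under 0.05 (edgeR quasi-likelihood test, library as block), where 15.5% of all 10463 genes tested were called. The 6 libraries used held 24 to 79 S cone-like and 164 to 447 L/M cone-like cells each, and the left hRPGR and left mScarlet libraries were left out because they had 9 and 1 S cone-like cells. The 6 libraries are punches of 2 animals, so the p-values measure the spread between punches and not between animals.

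THRB had 599 normalized CPM in L/M and 152 in S cone-like cells of the right NHP1 library, 634 and 422 in the left NHP1 library, 515 and 169 in the right NHP2 uninjected library and 517 and 225 in the left one. In the right hRPGR library it had 440 and 226, and in the right mScarlet library 397 and 134. THRB was lower in S cones in 6 of 6 libraries, and the left NHP1 library, with the huRPE65 UMIs, had the smallest drop. The log2 difference was -1.29 (SE 0.147, adjusted p 2.08e-06, edgeR). The difference lay between -1.44 and -1.17 when each library was left out in turn.

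RORB was higher in S cone-like cells in 6 of 6 libraries, with 131, 229, 279, 131, 164 and 146 normalized CPM against 121, 119, 133, 78.8, 68.2 and 93.0 in L/M cone-like cells, in the order right NHP1, left NHP1, right hRPGR, right uninjected, right mScarlet and left uninjected. The log2 difference was 0.83 (SE 0.130, edgeR adjusted p 0.000104). RXRG was higher in 6 of 6 libraries too, at 300.2 to 387 in S against 200.4 to 288 in L/M cone-like cells, a log2 difference of 0.47 (SE 0.0999, edgeR adjusted p 0.00234). The partners THRB and RXRG thus moved in opposite directions between the cone subtypes. SAMD7 was lower in 6 of 6 libraries, at 60.0 to 100.2 against 93.0 to 126 (log2 difference -0.55, SE 0.120, edgeR adjusted p 0.00261).

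MEF2D was lower in 6 of 6 libraries, at 80.6 to 134 against 123 to 157, a log2 difference of -0.37 (SE 0.114, edgeR adjusted p 0.0326). This call was lost in 6 of 13 alternatives, among them leaving out the right NHP2 uninjected library, which held coRPGR UMIs (adjusted p 0.125), the left one (0.124), the right hRPGR library (0.102) or the right NHP1 library (0.0578), and the DESeq2 test (0.0887). The calls of THRB, RORB, RXRG and SAMD7 held in all 13. CRX (log2 difference 0.09, SE 0.129), OTX2 (0.13, SE 0.111) and NEUROD1 (-0.18, SE 0.110), the general photoreceptor factors, did not pass the test, with adjusted p of 0.736, 0.524 and 0.318. NRL and NR2E3, at 0.24 (SE 0.186) and 0.60 (SE 0.334), did not pass either, although NRL passed with the stricter opsin threshold (log2 difference 0.66, edgeR adjusted p 0.0199), and in cones they stood at 0.886 to 1.80 and 0.999 to 3.03 times the free-RNA expectation. GNAT1 had a log2 difference of 0.26 (SE 0.228).

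Other fate regulators were called in the same fit about as often as all genes. Of 32 tested genes of a list of 51, 3 rose and 2 fell in S cone-like cells, beside 1622 of all 10463 genes (15.5%), with a list median log2 difference of -0.01 beside -0.02 for all genes. TBX2, a T-box factor, had 44.9 to 68.0 normalized CPM in S and 0 to 1.27 in L/M cone-like cells (log2 difference 6.28, SE 0.299). ISL2 had 0 to 1.73 against 21.9 to 44.8 (log2 difference -6.72, SE 0.470). LHX4 rose by 1.32 (SE 0.123) and SALL1 fell by 0.64 on the log2 scale. Among 15 tested cone genes 4 rose and 5 fell, led by OPN1LW and OPN1SW, which defined the split; CCDC136, the neighbor of OPN1SW in the assembly, rose by 8.79 and CNGB3 by 1.15, and PDE6H fell by 1.05. Among 34 tested rod genes 7 rose and 3 fell: SAG, rod arrestin, rose by 4.01, IMPG2 by 0.45 and ABCA4 by 0.41, and GUCA1A fell by 1.21 and FAM161A by 1.45. Not every gene of the rod list is confined to rods. In the uninjected libraries IMPG2 was 830 to 953 normalized CPM in cone-like and 586 to 669 in rod-like cells. The GUCA1A ranges overlapped, whereas SAG, ABCA4 and FAM161A were higher in rod-like cells.

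**Figure D2:**
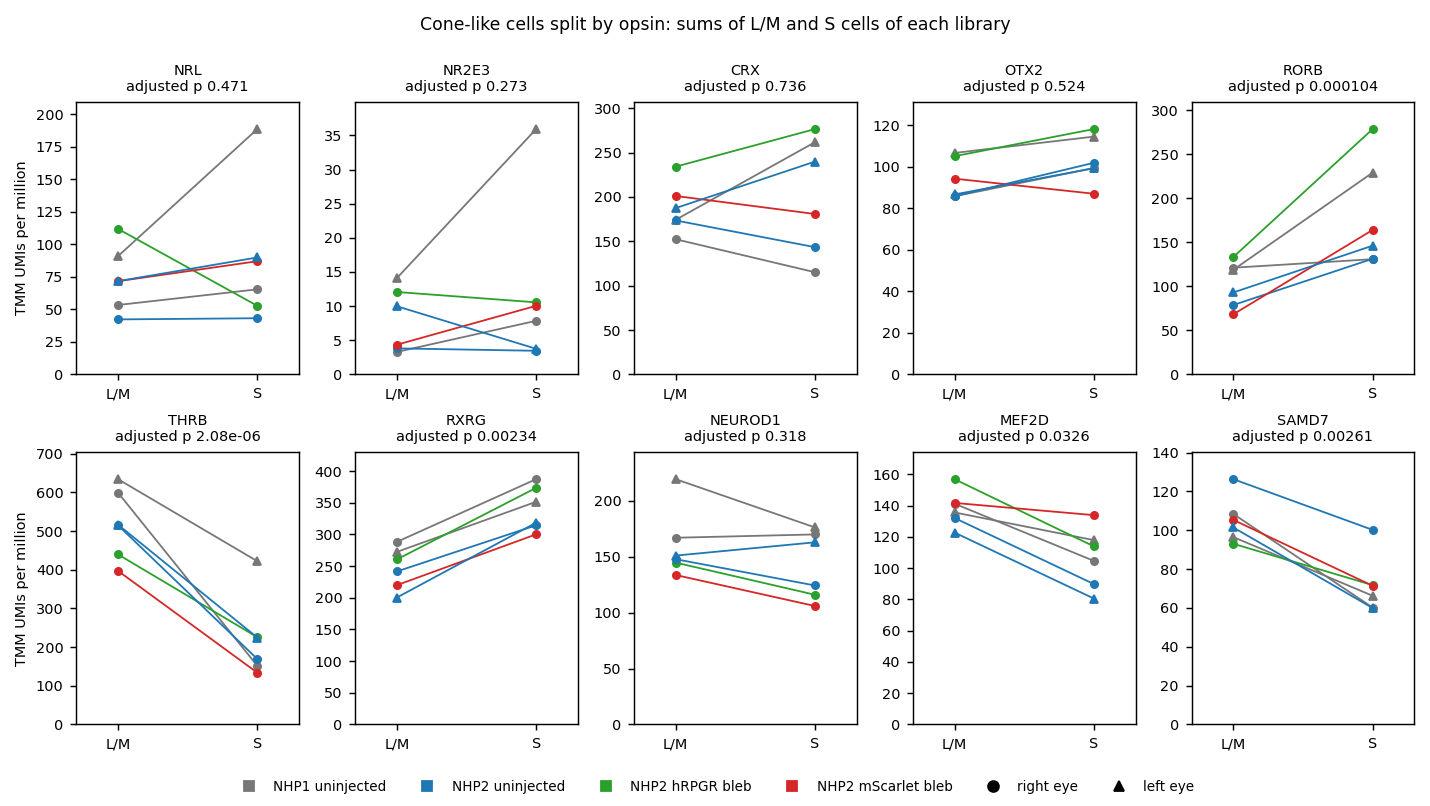
Normalized CPM (TMM) of each factor in the summed L/M and S cone-like cells of the same library, joined by a line for each of the 6 libraries, with the edgeR adjusted p above each panel. All 6 lines fall for THRB, MEF2D and SAMD7 and all 6 rise for RORB and RXRG.

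Rod-like cells were not uniform in these factors. In each library, 16.7% to 40.2% of rod-like cells had under 0.3% mitochondrial UMIs. CRX was higher in these cells than in the other rod-like cells in 8 of 8 libraries, with medians of 713 and 354 CPM and a median log2 difference of 1.03 (0.31 to 1.19). NEUROD1 was higher in 8 of 8, with medians of 559 and 304 (log2 difference 1.00, from 0.13 to 1.11), OTX2 in 8 of 8 (267 and 151, log2 difference 0.69) and RORB in 8 of 8 (163 and 119, 0.53). The cone marker ARR3 (15.7 and 8.71, 0.67) and the rod marker GNAT1 (3392 and 2352, 0.37) were also higher in 8 of 8 libraries, and the part of these shifts in the members' differences was not tested. MEF2D was lower in 8 of 8 (32.5 and 46.3, -0.51) and NR2E3 in 7 of 8 (289 and 320, -0.16). THRB, SAMD7 and NRL had median log2 differences of -0.06, 0.01 and 0.15. The cells under 0.3% were also shallower, with median UMIs of 3736 to 6795 against 4740 to 7332, and the part of depth was not tested. The left NHP1 library stood apart, with the smallest difference for CRX, NEUROD1, OTX2, RORB and MEF2D. The split was made after these levels had been seen and is a description with no test.

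The unnamed rod-marker clusters differed another way. Their NRL level was lower than in rod-like cells in 8 of 8 libraries, with medians of 784 and 3920 CPM (log2 difference -2.37, from -2.61 to -1.62), and NEUROD1 (127 and 350) and NR2E3 (141 and 316) were lower in 8 of 8. THRB was higher in 8 of 8, with medians of 552 and 183 (log2 difference 1.55, from 1.20 to 1.68). RXRG was higher in 8 of 8 as well, at a far lower level (4.82 and 1.82, log2 difference 1.28, from 0.65 to 1.59), and RORB in 7 of 8 (146 and 127, 0.12). MEF2D was higher in 6 of 8, with medians of 52.2 and 43.0 (log2 difference 0.36). CRX, at 376 and 435, OTX2, at 163 and 169, and SAMD7, at 108 and 111, had median log2 differences of -0.29, -0.05 and -0.12. GNAT1 was lower as well, with a median log2 difference of -1.33, whereas ARR3 had medians of 16.4 and 9.81 and stayed far from its cone-like level. The clusters were named from other genes of the same cells, so these values carry no test. What these cells are was not tested.

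**Figure D3:**
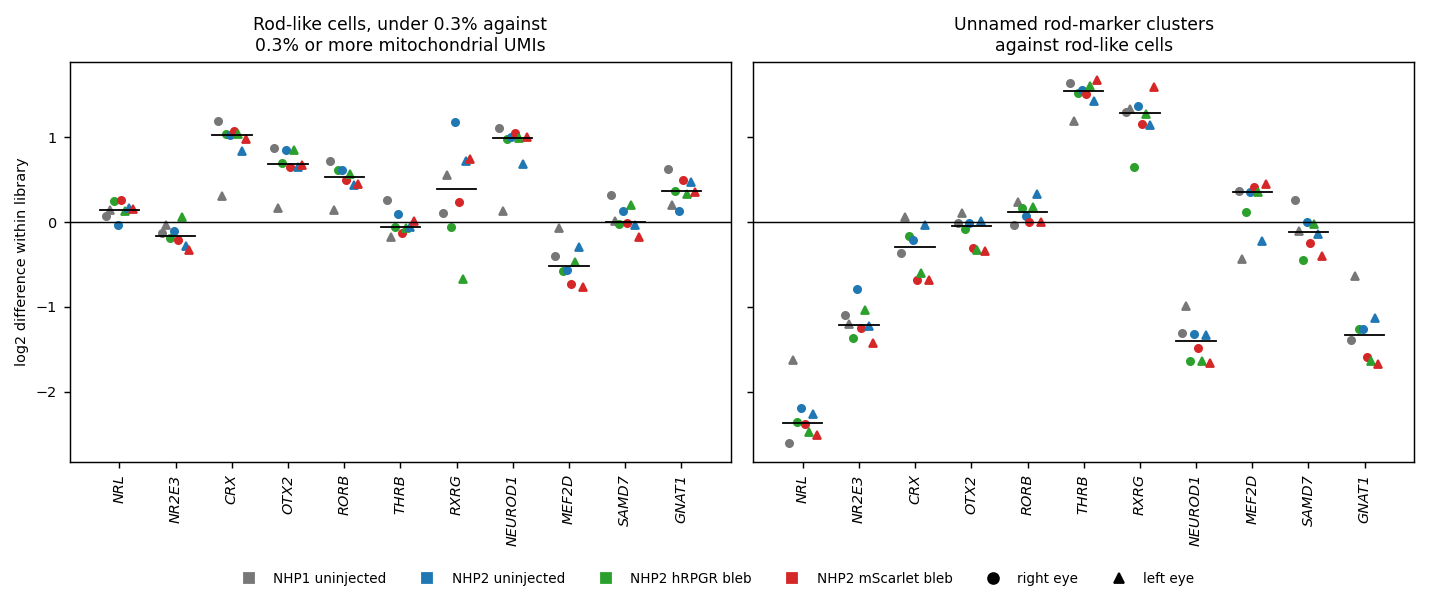
Log2 difference in CPM within each library, for the 10 factors and GNAT1, between rod-like cells under 0.3% and those at or over 0.3% mitochondrial UMIs (left), and between the unnamed rod-marker clusters and rod-like cells (right); points are libraries and bars medians. CRX, OTX2, RORB and NEUROD1 lie above 0 and MEF2D below 0 in all 8 libraries on the left, and NRL, NR2E3 and NEUROD1 below 0 and THRB and RXRG above 0 in all 8 on the right.

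The areas of NHP2 were compared to ask whether a vector bleb changed the factors in its photoreceptors. In rod-like cells 0 of 10 members were called in any of the 3 comparisons. The background was 0.755% of 14571 genes between the mScarlet bleb and the uninjected area, 0% between the hRPGR bleb and the uninjected area, and 0% between the blebs. DESeq2 called 1284, 69 and 128 genes in these 3 comparisons. At an unadjusted p under 0.05 the members numbered 3, 0 and 1, where 2998, 694 and 1082 of all 14571 genes did, and DESeq2 called 1 member, OTX2, in the first comparison and 0 in the others. The closest member was OTX2, at 173 and 159 normalized CPM in the right and left uninjected libraries, 181 and 178 in the hRPGR bleb, and 208 and 235 in the mScarlet bleb. The mScarlet libraries were the highest of the 6. The log2 difference between the mScarlet bleb and the uninjected area was 0.42 (SE 0.101), which did not pass in edgeR (adjusted p 0.0973) and passed in DESeq2 (adjusted p 0.00488). Without the right uninjected library, which held coRPGR UMIs, the OTX2 difference was 0.48 (SE 0.138, edgeR adjusted p 0.256), in a fit where the uninjected arm is 1 library, assumed to vary like the other areas.

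RORB and SAMD7 had differences of -0.30 (SE 0.117, edgeR adjusted p 0.215) and -0.38 (SE 0.135, edgeR adjusted p 0.189) in that comparison. RORB was 148 and 123 in the uninjected and 110 and 108 in the mScarlet libraries, and SAMD7 113 and 121 against 98.6 and 81.6. The share of all genes whose groups of 2 libraries do not overlap is not given, so nothing is read from a lack of overlap. NRL ranged from 3309 to 4958 over the 6 libraries, with differences of -0.16 (SE 0.193) for the mScarlet and -0.17 (SE 0.193) for the hRPGR bleb, and its 2 uninjected libraries alone stood at 4958 and 3868. The share of rod-like cells under 0.3% mitochondrial UMIs, in which OTX2 was higher, moved with the areas: it was 16.7% and 18.9% in the uninjected, 30.6% and 25.2% in the hRPGR and 29.3% and 33.3% in the mScarlet libraries. Among rod-like cells at or over 0.3%, the OTX2 difference was 0.35 (SE 0.0993, edgeR adjusted p 0.138).

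In cone-like cells 0 of 10 members were called in the 3 comparisons, beside a background of 0.76%, 0.0173% and 0.112% of 11583 genes for mScarlet bleb against uninjected area, hRPGR bleb against uninjected area and mScarlet bleb against hRPGR bleb. At an unadjusted p under 0.05 there were 1, 2 and 0 members and 1815, 736 and 1004 of all genes. DESeq2 called 1, 0 and 0 members, where it called 277, 41 and 48 of all genes. THRB was 507 and 519 normalized CPM in the right and left uninjected libraries, 423 and 435 in the hRPGR bleb and 361 and 387 in the mScarlet bleb. The 3 areas did not overlap, with 2 libraries each. The share of all genes that separate so is not given, so nothing is read from it. The mScarlet difference from the uninjected area was -0.46 (SE 0.103, edgeR adjusted p 0.103) and the hRPGR difference -0.26 (SE 0.103, edgeR adjusted p 0.761). DESeq2 called the first difference (adjusted p 0.00202). The mScarlet difference lay between -0.50 and -0.41 when each library was left out, and no such fit called it. RXRG was 253 and 212 in the uninjected and 232 and 254 in the mScarlet libraries, groups that overlapped (log2 difference 0.06, SE 0.133). MEF2D in the hRPGR bleb was 146 and 156 against 132 and 114 (log2 difference 0.30, SE 0.118, edgeR adjusted p 0.759). The left mScarlet library held 1 S cone-like cell, so the cone subtypes were not compared between areas.

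In bipolar-like cells 0 of 10 members were called, beside a background of 0.762%, 0.0154% and 0.123% of 12991 genes in the same 3 comparisons, and 2, 1 and 3 members had an unadjusted p under 0.05, as had 1439, 472 and 780 of all genes, while DESeq2 called 0 members in each. OTX2 was nearly level, at 332 to 355 normalized CPM in the 6 libraries (mScarlet bleb against uninjected area -0.0045, SE 0.103). CRX was 144 and 161 in the uninjected and 123 and 112 in the mScarlet libraries (log2 difference -0.38, SE 0.132, edgeR adjusted p 0.325). Without the right uninjected library the CRX difference was -0.45 (SE 0.156). With all libraries GNAT1 had -0.93 (SE 0.335) and NRL -0.38 (SE 0.215). The part of rod RNA in the CRX difference was not tested. NR2E3 was 12.6 and 17.2 in the uninjected, 30.5 and 17.2 in the hRPGR and 10.1 and 10.6 in the mScarlet libraries. It stood at 1.02 to 2.42 times its free-RNA expectation in this class, and the difference between the blebs was -1.16 (SE 0.270, edgeR adjusted p 0.219).

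**Figure D4:**
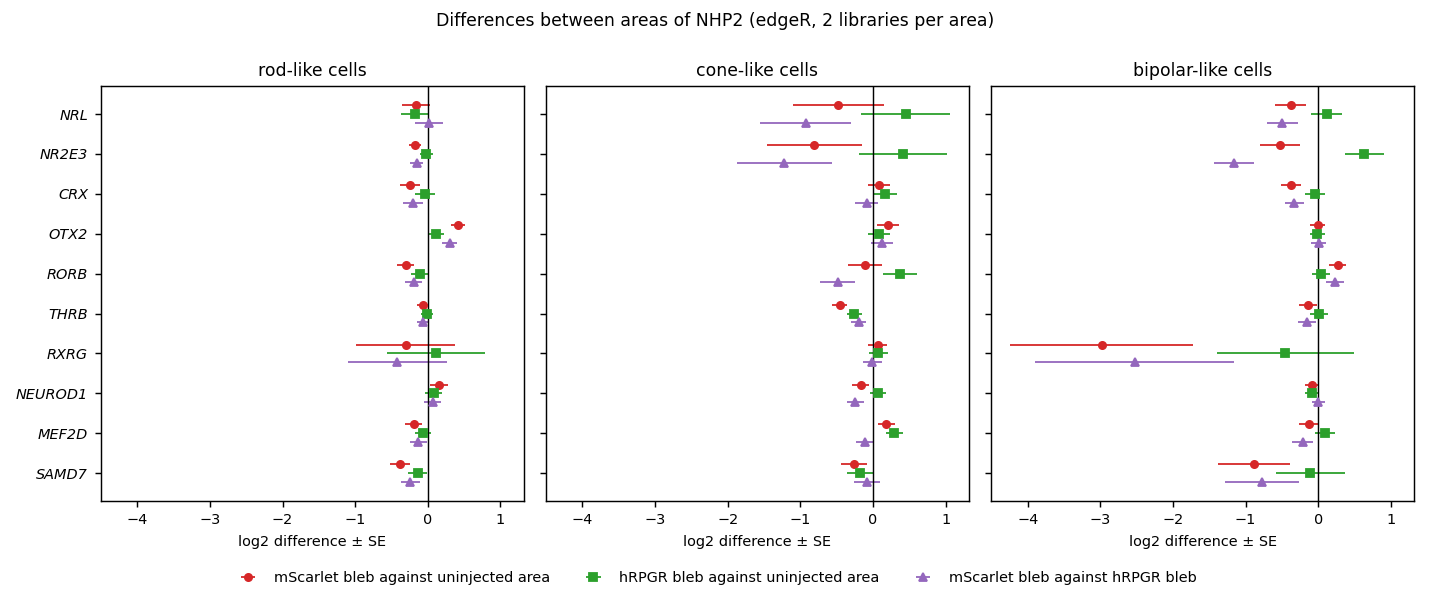
Log2 difference with its standard error (edgeR) of each factor between areas of NHP2 in rod-like, cone-like and bipolar-like cells, with 2 libraries per area. No difference passed an adjusted p of 0.05. Between the mScarlet bleb and the uninjected area DESeq2 called OTX2 in rod-like cells and THRB in cone-like cells. It called 1284 and 277 of all genes there.

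The further fate regulators gave few calls in the areas. Of the list of 51, 40 were tested in rod-like cells with 0 called in the 3 comparisons, and medians of -0.20, -0.06 and -0.11, where the median of all genes lay within 0.01 of 0. NR2F2 and SIX6 had the largest differences between the mScarlet bleb and the uninjected area (-2.12 and -2.03, neither called). In cone-like cells 35 were tested and 1 fell, the retinoic acid receptor gene RARB, at 129 and 137 normalized CPM in the uninjected, 114 and 119 in the hRPGR and 76.9 and 66.9 in the mScarlet libraries (log2 difference from uninjected -0.88, SE 0.117, edgeR adjusted p 0.0245). Of 34 rod genes tested in rod-like cells 0 were called between the mScarlet bleb and the uninjected area, with PDE6G at -0.97 and PDE6A at -0.67. Of 15 cone genes 1 was called, GNB3, which rose by 1.24 (SE 0.181) in rod-like cells of the mScarlet bleb. The list median was -1.85, with several of its genes at low levels and highest in the left uninjected library. ARR3 was 11.8 and 54.2 normalized CPM in the right and left uninjected and 7.0 and 2.1 in the mScarlet libraries. PDE6H was 11.7 and 89.2 against 8.9 and 5.9. GNB3 was not confined to cones, at 560 to 682 normalized CPM in bipolar-like cells of NHP2. In rod-like cells GNB3 was 289 and 277 normalized CPM in the uninjected and 619 and 716 in the mScarlet libraries. No gene was called without either mScarlet library or without the left uninjected one, so this call was lost there. In the fit of the animals, GNB3 in rod-like cells was 606 and 683 in the NHP1 and 278 and 265 in the NHP2 uninjected libraries (log2 difference -1.25, SE 0.109, edgeR adjusted p 0.0295). In bipolar-like cells PDE6G fell by 1.21 on the log2 scale, the only rod gene called of 34. Over all genes, 0.755%, 0.76% and 0.762% were called between the mScarlet bleb and the uninjected area in rod-like, cone-like and bipolar-like cells.

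Left and right eyes of NHP2 were compared because left eyes also received adalimumab. Neither rod-like nor cone-like cells gave a call, with 0 of 10 members past the test in each class beside a background of 0% of genes, and 0 members had an unadjusted p under 0.05 or were called by DESeq2. Over all genes, 116 for rods and 204 for cones had an unadjusted p under 0.05, and DESeq2 called 11 and 0. Every log2 difference in rod-like cells lay between -0.12 (MEF2D) and 0.10 (NEUROD1). In cone-like cells NRL had -0.81 (SE 0.505) with GNAT1 at -1.08 (SE 0.806), and the other 9 members lay between -0.39 and 0.06. NRL was 52.2 right and 94.9 left in the uninjected pair, the opposite order to the hRPGR pair (157.5 and 40.1) and the mScarlet pair (73.8 and 27.3). Leaving out either uninjected library left the same 2 bleb pairs to give the difference, and NRL was then called (-1.73, edgeR adjusted p 0.0024 without the right library, which held coRPGR UMIs). NRL in cone-like cells stood at 0.886 to 1.80 times its free-RNA expectation. The eyes of 1 animal differ in more than the antibody, which cannot be told apart from the side.

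Uninjected areas of NHP2 and NHP1 were compared next. Each arm is the 2 eyes of 1 animal, so the p-values measure the spread between eyes and cannot test a difference between animals. In rod-like cells 0 of 10 members were called where 0.77% of 14152 genes were. For cone-like cells 0 of 10 were called where 1.78% of 11312 genes were. At an unadjusted p under 0.05 there were 2 and 3 members and 1842 and 1629 of all genes. DESeq2 called 2 and 0 members, where it called 637 and 271 of all genes. SAMD7 in rod-like cells was 180 and 166 normalized CPM in the right and left NHP1 libraries and 109 and 116 in those of NHP2 (log2 difference -0.62, SE 0.0952, edgeR adjusted p 0.0959). THRB was 224 and 234 against 178 and 177 (-0.37, SE 0.0869, edgeR adjusted p 0.20). DESeq2 called both (adjusted p 2.43e-05 and 0.0168). Left eyes of both animals had received adalimumab, and with eye as a block edgeR called both (adjusted p 0.0122 and 0.0438). This block pairs eyes of different animals. In cone-like cells RORB was 123 and 135 against 83.2 and 99.1 (-0.50, SE 0.134, edgeR adjusted p 0.154) and RXRG 292 and 277 against 241 and 202 (-0.36, SE 0.132, edgeR adjusted p 0.288). With the eye block edgeR called both (adjusted p 0.00489 and 0.0385), and the calls over all genes numbered 1368 for rods and 1113 for cones, against 109 and 201 without it. Without the left NHP1 library the log2 differences were -0.68 for SAMD7 and -0.34 for THRB in rod-like cells, and -0.43 for RORB and -0.40 for RXRG in cone-like cells. Without the right NHP2 library they were -0.57, -0.37, -0.37 and -0.49. An arm is then 1 library, assumed to vary like the others. Animal, age, vector and the huRPE65 signal of the left NHP1 library cannot be told apart here.

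Rod-like cells of the blebs were last split by whether they held a UMI of the bleb's own transgene after thinning. Before thinning, 95.1% of all cells in the right hRPGR library, not only photoreceptors, held a coRPGR UMI. Such a UMI therefore need not mark a transduced rod. The comparison rested on 2155 to 4240 cells with and 133 to 2862 without such a UMI per library. With library as block, 0 of 10 members were called, beside 0.0835% of 11974 genes, and 1 member, RXRG, had an unadjusted p under 0.05, while DESeq2 called 0. The log2 differences of NRL, NR2E3, OTX2, RORB, THRB and SAMD7 lay between -0.04 and 0.00 with standard errors of 0.0436 to 0.0564. CRX had 0.10 (SE 0.0530, edgeR adjusted p 0.903), NEUROD1 0.06 (SE 0.0478) and MEF2D -0.13 (SE 0.0778). RXRG, at a median of 1.081 CPM with and 2.21 without a transgene UMI, was near the limit of counting in rods.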

How the data were processed

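Retinal cells of the 8 libraries were sequenced with the Chromium 5′ kit, and the deposited matrices held raw UMI counts per feature and barcode, which per the labels the authors made with Cell Ranger on Mmul_10 (8.0.1 per the file headers). The members and gene lists were chosen with earlier results of these data known. Of 26533 features, 16678 had a symbol in the files and 564 took one from a reference table. A barcode was kept as a cell at 1500 or more UMIs, 300 or more genes and no more than 20% of UMIs from mitochondrial genes (91796 cells). Scrublet's automatic threshold (scanpy 1.11.5) marked at most 0.0196% of the cells of any library and was not used, so the top-scoring 0.8% per 1000 cells of each library were removed (8604 cells, 83192 left). Any pair of libraries shared few cell barcodes, such as 216 between the NHP1 eyes. Cells were clustered without the 10 members, the mitochondrial genes and the transgenes (3000 variable genes, 40 principal components, 15 neighbors, Leiden resolution 2), which gave 81 clusters, 26 of them unnamed, and "-like" names came from marker lists, so they may differ from the authors' cell types.

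Counts were summed per library and class and compared by the quasi-likelihood F test of edgeR 4.0.16 (TMM scaling, low counts removed by filterByExpr, two-sided, Benjamini-Hochberg over all genes tested, threshold 0.05) in R 4.3.3, with DESeq2 1.42.0 as an alternative, and the steps were tested on simulated data. Levels are counts per 1000000 of the class sum (CPM). Shares used cells thinned to 3000 UMIs, and intervals or floors on them would cover counting error only. Same-numbered NHP2 libraries came from the same eye of the same animal; the correlations of their deviations from the area means were -0.42, 0.29 and -0.24 in rod-like cells. All members were named, and from each list the up to 5 called genes with the lowest p that changed the same way in every pair, or the 2 with the largest differences where none was called; TBX2, ISL2 and the others follow this rule. Alternatives were DESeq2, no filter on low counts, leaving out each library, the eye block, stricter opsin thresholds and other rod definitions; rod-like cells with at least 0.3% mitochondrial UMIs and a wider L/M opsin set were added after seeing the data. Cell Ranger's treatment of antisense reads was not examined, and no cause was tested. A few genes are not reported here.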

Additional observations from a re-analysis of the deposited data

Results flagged for a closer look

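Transgene UMIs stood outside the comparisons and above the libraries without the vector in 3 libraries. In the left NHP1 library labelled uninjected, 45.68% of cells held a huRPE65 UMI. In the right NHP2 library labelled uninjected, 17.28% held a coRPGR UMI, and in the right mScarlet bleb library 4.043% did. The left NHP2 uninjected library held 0 coRPGR UMIs. For the members, the left NHP1 library also had the smallest difference in CRX, OTX2, RORB, NEUROD1 and MEF2D between rod-like cells under and over 0.3% mitochondrial UMIs, and the smallest THRB difference between cone subtypes. The groups held 2 libraries each, and groups of that size were not tested for outliers.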

How the results depend on the processing

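Of 171 recomputed counts of members called, 158 stayed within 1.5 times the reported count, and of 1707 recomputed member differences, 1622 were uncalled both ways (149 of them changed sign); among the others 20 gained a call, 6 lost one and 0 reversed. DESeq2 called 1 member (OTX2) in rod-like and 1 (THRB) in cone-like cells between the mScarlet bleb and the uninjected area, and 2 (THRB, SAMD7) between the animals in rod-like cells. Without the filter on low counts, 2 were called in cone-like cells between the mScarlet bleb and the uninjected area (NRL, THRB), 2 between the blebs (NRL, NR2E3), 2 between the blebs in bipolar-like cells (NRL, NR2E3), and between the animals 1 in rod-like (SAMD7) and 1 in cone-like cells (RORB). Leaving out 1 library gave 0 to 1 member between the blebs in bipolar-like cells (NR2E3, without the left hRPGR library) and 0 to 1 between the eyes in cone-like cells (NRL, without either uninjected library). With eye as a replicate block, 2 members were called between the animals in rod-like (THRB, SAMD7) and 2 in cone-like cells (RORB, RXRG); same-side eyes of the animals share the adalimumab treatment but not an animal. The block changed no member call between areas. The cause of these changes was not tested. For all genes, the mScarlet bleb against the uninjected area gave 110 calls in rod-like cells by edgeR, 1284 by DESeq2 and 850 without the filter, and 88, 277 and 993 in cone-like cells. For bipolar-like cells the counts were 99, 94 and 586. For the animals they were 109, 637 and 300 in rod-like and 201, 271 and 1001 in cone-like cells. Leaving out 1 library gave 0 to 1125 genes in rod-like cells between the mScarlet bleb and the uninjected area (0 without either mScarlet library or the left uninjected one, 4 without the right uninjected one, 1098 or more without an hRPGR one), 12 to 358 in cone-like and 22 to 191 in bipolar-like cells (lowest without the left mScarlet library), and between the animals 16 to 282 in rod-like and 63 to 509 in cone-like cells (lowest without the right NHP2 library). Counting the unnamed rod-marker clusters as rod-like gave 25 and, between the animals, 21. S against L/M cone-like cells gave 4 to 6 members, NRL being the added one under the stricter opsin threshold, and 1018 genes without the library block against 1622. The counts of 0 genes in rod-like cells moved too: the hRPGR bleb against the uninjected area gave 69 by DESeq2, 17 without the filter and 219 without the left hRPGR library, and the blebs gave 128, 35 and, without the right hRPGR library, 188. Left against right eyes gave 11 by DESeq2, 0 without the filter, and 404 or 386 without the right or left hRPGR library; in cone-like cells they gave 0, 54, and 51 or 53 without the right or left uninjected library. The hRPGR bleb against the uninjected area went from 2 to 41 and 422 in cone-like and from 2 to 11 and 102 in bipolar-like cells, and the blebs from 13 to 48 and 359 and from 16 to 25 and 339, by DESeq2 and without the filter. Transgene UMIs in rod-like cells went from 10 to 15 and 53. With the eye block the animals gave 1368 for rods and 1113 for cones, and the mScarlet bleb against the uninjected area 3 and 31. Leaving cells unthinned moved 29 of 30 median shares. Leaving out each library in turn moved 0 of 240 median levels. A move there needed a change of the median by at least the standard deviation between libraries, which 1 library can hardly give, so nothing is read from this count. With 2 libraries a group from 1 animal, small differences were not detectable.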
